A study of Mus musculus with 577 samples.

Results

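The data described here are the single oocytes and single granulosa cells taken from mouse ovarian sections that had been fixed in formalin for 24 h. The members are all 36 cell columns of the read-count table of that experiment, 12 labelled as oocytes and 24 labelled as granulosa cells, out of 577 samples in the whole series. Both protein-coding and noncoding rows of the table were used.

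A growing follicle holds an oocyte inside layers of granulosa cells, and the cells exchange signals in both directions. The oocyte builds the zona pellucida around itself, secretes growth factors of the TGF-β family, and stores maternal mRNAs and proteins for the embryo. Granulosa cells carry the receptor for follicle-stimulating hormone, make inhibins and anti-Müllerian hormone, and feed the oocyte through gap junctions. Formalin crosslinks RNA with protein, so that RNA of formalin-fixed sections is difficult to copy into cDNA.

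The study asked whether its section method, DRaqL, in which cells are lysed in sodium deoxycholate that is then quenched with Triton X-100, could be used on strongly fixed tissue. Ovaries of 8-week-old female mice were snap-frozen and cut at 15 μm, and the sections were kept in 10% formalin at room temperature for 24 h and stained with cresyl violet. Single cells were cut out by laser capture microdissection, lysed with a thermolabile protease, amplified by Smart-seq2 (DRaqL-Protease-Smart-seq2) and sequenced at their 3′ ends. The labels give the same fixation and amplification protocol for both cell types and name no strain, genotype or drug that differed between them. In the related DRaqL-Smart-seq2 protocol oocytes had a PCR program of their own, and whether the number of PCR cycles differed between the cell types here is not given in the sources used here.

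Among the oocytes, 5 were labelled Primary follicle and 7 Secondary-antral. Among the granulosa cells, 12 were labelled Neighboring and 12 Non-neighboring, which is their position relative to the oocyte. A growing oocyte can be wider than a section, so that an oocyte library can hold a slice of the cell. Per the study's text, its amplification methods, the one used here among them, were applied to sections of the same ovary, while the labels name no animal for a cell. With 1 library being 1 cell, the 2 cell types were therefore taken as 1 sample each. The SDs given are those among cells, and the cell types were compared without a test. All 12 oocytes were sequenced in library pool S6, whereas the granulosa cells were in pools S4 and S5, with 6 Neighboring and 6 Non-neighboring cells in each. Library pool and cell type therefore cannot be told apart, and the same 12 in-line indexes (IL01 to IL12) were used in all 3 pools.

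Oocyte libraries were deeper than granulosa libraries. The oocyte libraries held 234346 to 2525212 reads on genes, with a median of 679406. Those of granulosa cells held 79010 to 1132397, with a median of 221946. Only 3 oocyte libraries were deeper than every granulosa library. To compare numbers of detectable genes (more than 0 reads), each library was thinned to 79010 reads, the total of the shallowest library. At this depth oocytes showed 8459 ± 1136 protein-coding genes (SD, n = 12 cells) and granulosa cells 6209 ± 488 (SD, n = 24 cells). Without thinning, the values were 12525 ± 1662 and 8057 ± 1345. The thinned values of granulosa cells were between 4942 and 7366. Secondary-antral oocyte IL08, with 5678 genes, and Primary follicle oocyte IL01, with 7074, lay within this range, and the other 10 oocytes lay above it, at up to 9479.

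ERCC spike-in RNA was added in equal amount to each lysate, so that reads on genes per ERCC read describe how much cellular RNA was recovered. This value was 0.847 to 49.2 in oocytes, with a median of 24.8, and 0.258 to 4.89 in granulosa cells, with a median of 1.54. Oocytes of Primary follicles had a median of 8.81 and Secondary-antral oocytes one of 33.8. The lowest oocyte was again IL08, and the oocytes IL01, IL02 and IL08 lay within the range of granulosa cells, whereas the other oocytes lay above it. In 9 of 12 oocytes, more cellular RNA per spike-in RNA was read than in any granulosa cell. The share of reads on the mitochondrial genome was 4.29% ± 1.50 in oocytes and 5.85% ± 1.76 in granulosa cells.

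**Figure D1:**
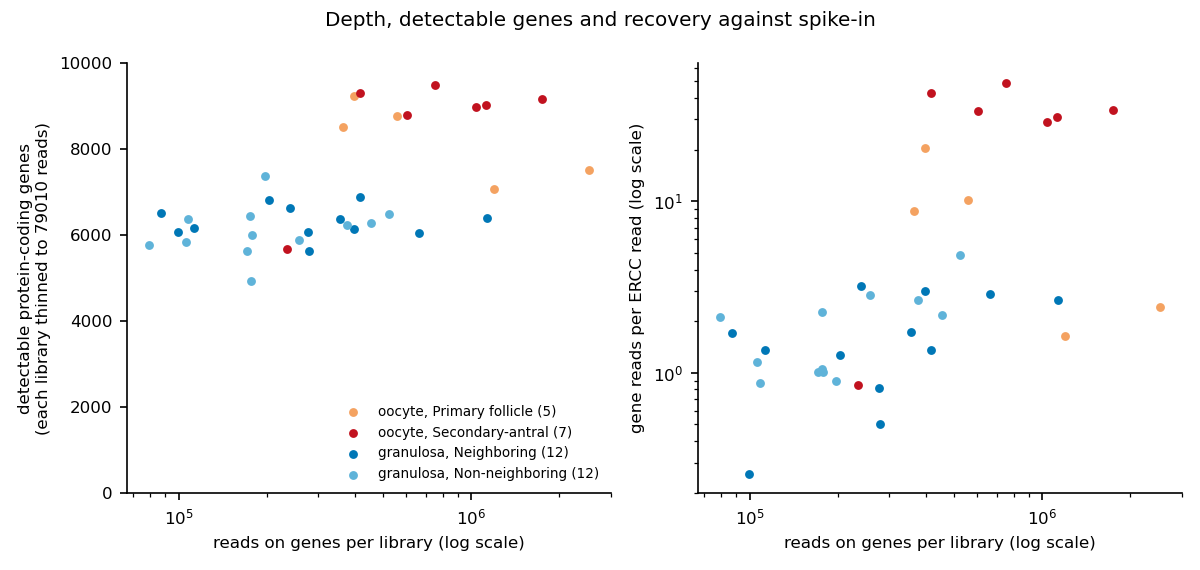
Each point is 1 cell, coloured by cell type and position. The left panel plots detectable protein-coding genes after thinning to 79010 reads, and the right panel gene reads per ERCC read on a log scale, both against reads on genes per library on a log scale. Oocytes lie above granulosa cells in both panels except for a few libraries, among which IL08 is at 5678 genes and 0.847 reads per ERCC read.

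The labels of the cell types were compared with marker genes. Each of the 10 oocyte markers (Dazl, Zp1, Zp2, Zp3, Gdf9, Bmp15, Figla, Nobox, Oosp1 and H1foo) was read in all 12 oocytes and was higher in oocytes. Their summed level was 1791 to 20743 RPM (reads per 1000000 reads on genes) in oocytes, with a median of 16122, and 15.4 to 2396 RPM in granulosa cells, with a median of 123. The summed level of the 12 granulosa markers was 2743 to 12692 RPM in granulosa cells and 408 to 1203 RPM in oocytes, without overlap. By pool, this sum was 6846 to 12692 RPM in S4 and 2743 to 6972 RPM in S5. Of these 12 markers, 10 had a lower mean in oocytes and 2, Foxl2 and Kitl, a higher one. The sign turned for Foxl2 with summed counts, pool S5 or Neighboring cells alone and for Inhba with pool S5 alone. The labels and the markers went together in the sums of the granulosa list. In the sums of the oocyte list, 3 granulosa cells lay above the lowest oocyte. The lists were chosen with earlier results of these data known, so that this is no independent check of the labels. Igf1 and Adamts6 had the largest differences towards granulosa cells, and Dazl had the largest towards oocytes.

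Promoters are shown for Zp3, an oocyte gene of the zona pellucida, and Fshr, a granulosa gene, as the control regions of a pair of genes with opposite patterns here. They run from 250 bases before to 50 bases after the start site, are read 5′ to 3′ on the strand of the gene, and come from RefSeq on GRCm38.p6. Among the 3 zona pellucida genes only Zp3 was matched to an entry of the promoter sequences used here. Capitals mark matches to CANNTG, the E-box, which is the core motif bound by basic helix-loop-helix factors such as the oocyte factor Figla.
Zp3, chr5:135979855-135980154, plus strand: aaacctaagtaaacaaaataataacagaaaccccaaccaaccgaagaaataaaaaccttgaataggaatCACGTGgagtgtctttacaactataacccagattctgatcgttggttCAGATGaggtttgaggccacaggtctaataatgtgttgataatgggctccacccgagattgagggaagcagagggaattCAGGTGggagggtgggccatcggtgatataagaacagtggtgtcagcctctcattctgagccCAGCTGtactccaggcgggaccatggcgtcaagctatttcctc
Fshr, chr17:89200626-89200925, minus strand: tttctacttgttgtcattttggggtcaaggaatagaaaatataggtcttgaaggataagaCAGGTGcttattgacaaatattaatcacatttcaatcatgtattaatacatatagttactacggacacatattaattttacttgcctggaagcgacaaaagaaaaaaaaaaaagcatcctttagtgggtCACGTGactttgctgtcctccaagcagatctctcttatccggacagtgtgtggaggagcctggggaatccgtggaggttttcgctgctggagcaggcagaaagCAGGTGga
The Zp3 window held 4 matches and the Fshr window 3. Of all 32851 promoters of this length, 72.3% held at least 1 CANNTG, which reads the same on both strands. The palindrome CACGTG, which is a form of the E-box, lay 181 bases before the start site of Zp3 and 61 bases before that of Fshr, and 7.15% of all promoters held it. The homeobox core motif TAATTG, searched on both strands and found in 8.00% of all promoters, was in neither window. A match is a stretch of letters and no evidence of binding. Fshr was chosen for this comparison after its values were seen.

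Dazl, an RNA-binding protein of germ cells that controls translation, lies on chr17:50279395-50293636 (GRCm38, minus strand). It was read in all 12 oocytes at 94.5 to 660 RPM, with a median of 438 RPM. It was read in 5 of 24 granulosa cells, at 100.99 RPM in the Neighboring cell IL03 of pool S4 and at 1.91 to 8.33 RPM in the other 4, and had no read in the rest. Summed over cells, Dazl had 363 RPM in oocytes (95% Poisson interval 352 to 375) and 6.93 RPM in granulosa cells (5.13 to 9.17), where the intervals cover counting error only. The difference of mean log2(RPM + 1), oocytes minus granulosa cells, was 7.89, the largest of all genes. The groups overlapped only through oocyte IL01, the lowest, and that 1 granulosa cell.

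Zp2, a glycoprotein of the zona pellucida to which sperm bind, lies on chr7:120126772-120145291 (minus strand). Its level was 580 to 4505 RPM in oocytes, with a median of 1887 RPM, and 0 to 420 RPM in granulosa cells, with a median of 10.1 RPM. It was the only 1 of the 10 oocyte markers whose groups did not overlap, although 17 of 24 granulosa cells had reads of it. The difference on the log2 scale was 7.57.

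Igf1, the insulin-like growth factor that granulosa cells secrete, lies on chr10:87858265-87937042 (plus strand). It was read in every granulosa cell, at 81.1 to 1791 RPM with a median of 354 RPM, and in 10 of 12 oocytes, at 0 to 77 RPM with a median of 4.81 RPM. The lowest granulosa cell and the highest oocyte were close to each other, but the groups did not overlap. The difference of -5.83 on the log2 scale was the largest in the direction of granulosa cells, just beyond that of Adamts6, and it was -6.17 against pool S4 and -5.48 against pool S5.

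Adamts6, a secreted metalloprotease of the extracellular matrix, lies on chr13:104287835-104496695 (plus strand). It was at 10.1 to 2036 RPM in granulosa cells, with a median of 340 RPM, and at 0 to 36.1 RPM in oocytes, with a median of 1.74 RPM. The groups overlapped through granulosa cells of pool S5. The median was 547 RPM in pool S4 and 78.3 RPM in pool S5, a ratio of 6.98 between pools of the same cell type, fixation and positions. The difference was -7.29 against pool S4 and -4.36 against pool S5, so that its direction was the same with either pool while its size was not.

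**Figure D2:**
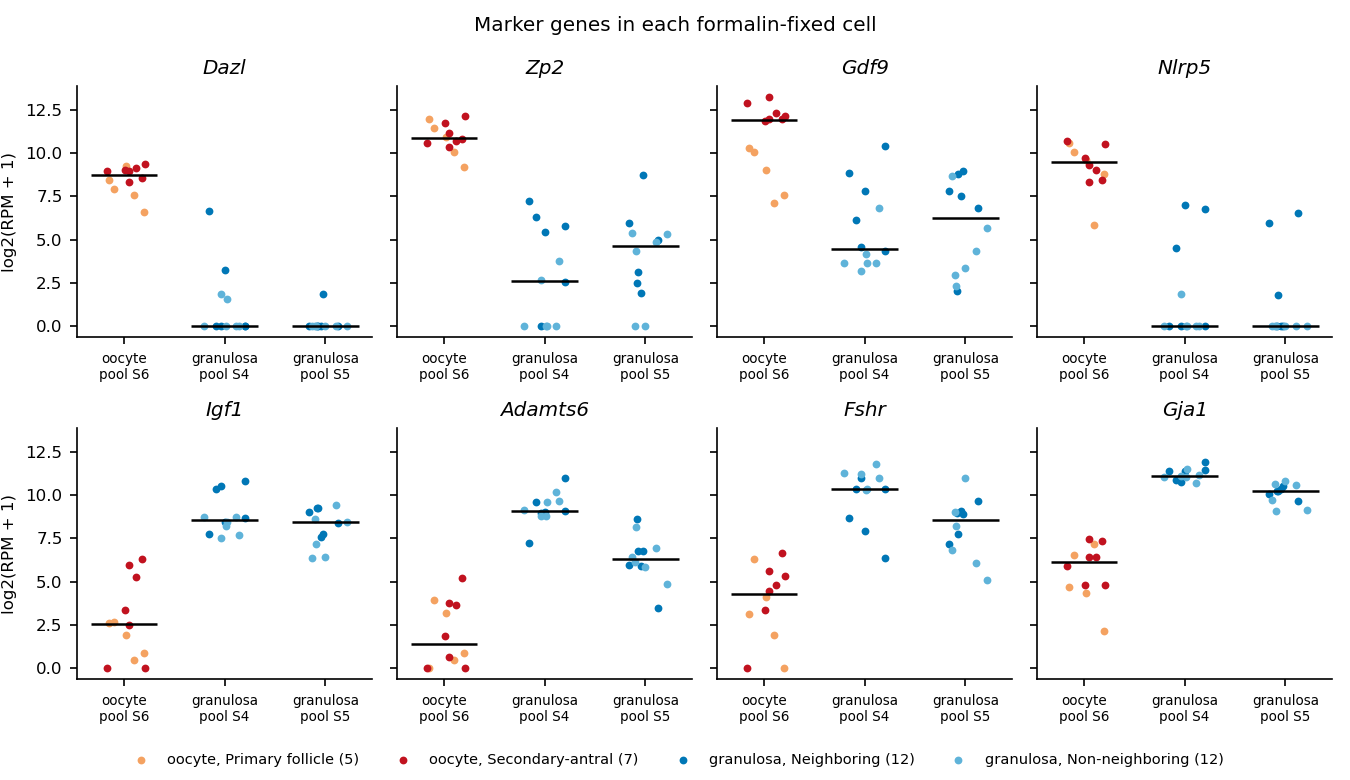
Each point is 1 cell, with log2(RPM + 1) on the vertical axis and library pool on the horizontal axis; black lines are medians of each pool. Dazl, Zp2, Gdf9 and Nlrp5 are high in oocytes, Igf1, Adamts6, Fshr and Gja1 are high in granulosa cells of both pools, and Adamts6 and Fshr are higher in pool S4 than in pool S5.

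Across all genes, those higher in oocytes outnumbered those higher in granulosa cells. Of 21178 genes with log2(RPM + 1) above 4 in at least 1 cell, 4931 (23.3%) had a difference of means above 1.8, and 484 (2.29%) had a difference below -1.8. Among protein-coding genes the numbers were 4093 (28%) and 400 (2.74%) of 14618, and among noncoding genes 838 (12.8%) and 84 (1.28%) of 6560. The groups did not overlap in 52 genes (0.246%) that were higher in oocytes and in 10 genes (0.0472%) that were higher in granulosa cells. Of these, 43 (0.294% of the protein-coding genes) and 10 (0.0684%) were protein-coding. The median difference of all genes was 0.62, so that the centre of the differences was not at 0.

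The size of this imbalance differed with how the levels were scaled and averaged. Genes higher in oocytes were 91.1% of the genes past the fold on the scale of mean log2 values. They were 73% (2948 against 1092 genes) when differences were taken relative to the median of all genes, and 84.3% (4143 against 772 genes) after thinning to the shallowest library. With the ratio of summed counts they were 59.9% (3600 against 2415 genes). With TMM they were 94% (5846 against 375 genes), with DESeq2 size factors 93.7% (5718 against 382 genes), and among genes with a mean of at least 4 in a group 89.4% (3195 against 377 genes). With genes sorted by the average of their mean log2 levels in the 2 cell types, the median difference was 0.27 below 2, 1.40 at 2 to 4, 0.95 at 4 to 6, -0.085 at 6 to 8 and -0.59 at 8 or more. Scaling by TMM or by DESeq2 size factors moved the median of all genes to 0.82 and 0.81, and no list described below as higher in either cell type changed direction under these scalings.

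**Figure D3:**
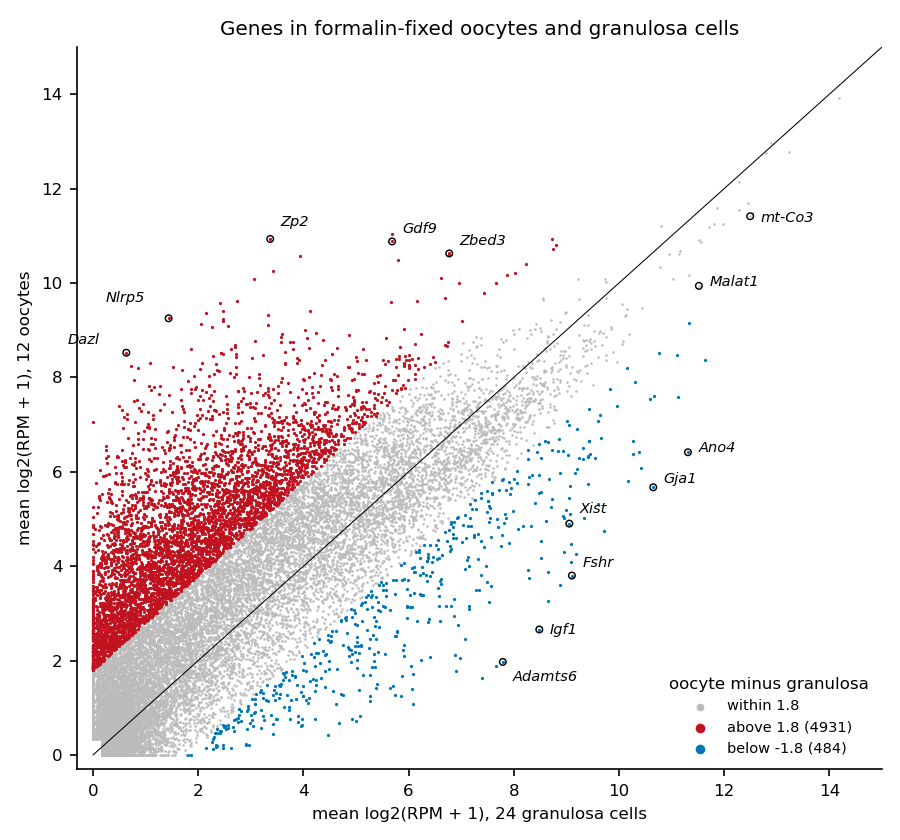
Each point is a gene that passed the filter, with its mean log2(RPM + 1) over 24 granulosa cells on the horizontal axis and over 12 oocytes on the vertical axis, and the line marks equal levels. Red points are the 4931 genes above 1.8 and blue points the 484 genes below -1.8.

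The zona pellucida is assembled from glycoproteins that the growing oocyte secretes. All 3 of its genes were past the fold in oocytes, in a background of 28% for protein-coding genes. The median difference was 7.21. Zp1, which crosslinks the filaments, was at 123 to 1455 RPM in oocytes (median 932 RPM) and at 0 to 289 RPM in granulosa cells (median 4.26 RPM). Zp3, a structural partner of Zp2, was at 174 to 4570 RPM in oocytes (median 2274 RPM) and at 0 to 331 RPM in granulosa cells (median 17.6 RPM). Zp3 was read in 21 of 24 granulosa cells, and both genes overlapped between the cell types through the lowest oocytes. Primary follicle oocytes had a lower median than Secondary-antral oocytes for Zp1, at 208 and 1171 RPM, and for Zp3, at 616 and 2294 RPM. For Zp2 the medians were alike, at 1946 and 1828 RPM.

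Factors secreted by the oocyte act on the granulosa cells around it. All 6 genes of this list were past the fold in oocytes (background 28%), with a median difference of 5.09. Gdf9, a TGF-β family ligand required for follicles to grow past the primary stage, was at 136 to 9623 RPM in oocytes (median 3845 RPM) and at 3.01 to 1379 RPM in granulosa cells (median 36.7 RPM). Bmp15, its partner ligand, was at 52 to 3732 RPM in oocytes and at 0 to 551 RPM in granulosa cells. For both ligands the Primary follicle oocytes were low, with medians of 517 RPM for Gdf9 and 90.3 RPM for Bmp15, against 4634 and 3146 RPM in Secondary-antral oocytes. Fgf8, a ligand with which oocytes drive granulosa metabolism, had medians of 3.35 and 190 RPM in these oocytes. The oocyte-secreted proteins Oosp1, Oosp2 and Oosp3 had medians of 46.5, 5.02 and 5.85 RPM in Primary follicle oocytes and of 1442, 159 and 528 RPM in Secondary-antral oocytes. With Primary follicle oocytes alone the median difference of the list was 1.93.

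Among 12 oocyte transcription factors 10 passed the filter. Of these, 9 were past the fold in oocytes (background 28%) and 1, Taf4b, in granulosa cells (background 2.74%). Lhx8, a homeobox factor of early oocytes, was at 54.4 to 418 RPM in oocytes and at 0 to 14.7 RPM in granulosa cells, without overlap. Tbpl2, which replaces the TATA-binding protein in growing oocytes, was at 1.58 to 151 RPM in oocytes and was read in 2 granulosa cells, at 1.51 RPM or less. Nobox, a homeobox factor of follicle growth, had a difference of 6.68, and Figla, the regulator of zona genes, had one of 5.19. Sohlh1 and Sohlh2, basic helix-loop-helix factors of the earliest follicles, had medians of 219 and 28.7 RPM in Primary follicle oocytes and of 2.67 and 0 RPM in Secondary-antral oocytes. Sohlh2 had no read in any granulosa cell, and with a floor of 3 reads over that group its summed level was at least 39.4-fold higher in oocytes. The homeobox genes Obox1, Obox2 and Obox5 went the other way, with medians of 27.6, 13.4 and 11.1 RPM in Primary follicle oocytes and of 2139, 1060 and 1012 RPM in Secondary-antral oocytes. Taf4b, a subunit of TFIID needed for ovarian reserve, was at 39.7 to 753 RPM in granulosa cells and at 0.836 to 115.6 RPM in oocytes. Obox3 and Obox6 did not pass the filter.

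The subcortical maternal complex is a protein assembly under the oocyte membrane that embryos need for their first divisions. All 6 of its genes were past the fold in oocytes (background 28%), with a median difference of 6.95. Nlrp5, its founding member, was at 55.8 to 1698 RPM in oocytes (median 714 RPM) and was read in 7 of 24 granulosa cells, with a highest level of 129 RPM. Ooep, an RNA-binding member, was at 275 to 1866 RPM in oocytes and at 0 to 202 RPM in granulosa cells, without overlap. Khdc3 and Padi6 had differences of 7.09 and 7.02, and Tle6 had one of 5.98. Zbed3 had the highest median of all protein-coding genes in oocytes, 4619 RPM, with a range of 62.2 to 6998 RPM. Its median was 348 RPM in Primary follicle and 5807 RPM in Secondary-antral oocytes, and 139 RPM in granulosa cells. The table holds the row of the snoRNA Gm22661 inside it with 39552 reads against 39909 of Zbed3, so that the reads of the pair cannot be told apart.

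NLRP proteins form a family of which many members are made in oocytes. All 11 genes of this list were past the fold in oocytes (background 28%), with differences from 2.50 for Nlrp4c to 7.82 for Nlrp5. Nlrp14 was at 266 to 2684 RPM in oocytes and at 0 to 1238 RPM in granulosa cells, and Nlrp4f was at 93.7 to 892 RPM and 0 to 139 RPM. Apart from Nlrp5, Nlrp14 and Nlrp4f, the Primary follicle oocytes were at low levels in this family. In Primary follicle oocytes the medians of Nlrp2, Nlrp4a, Nlrp9a and Nlrp9c were 2.74, 10.9, 6.73 and 5.15 RPM, against 132, 376, 160 and 313 RPM in Secondary-antral oocytes. The gap was narrower for Nlrp4c, at 6.34 against 23.2 RPM, and for Nlrp4e, at 28.1 against 130 RPM. Members of this family are similar in sequence, and how reads shared by near-identical copies were assigned is uncertain.

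Regulators of maternal mRNA keep transcripts stored until the oocyte matures. Of 11 genes, 9 were past the fold in oocytes (background 28%), and the median difference was 4.98. Ybx2, which coats stored mRNA, was at 171 to 483 RPM in oocytes and at 0 to 100.5 RPM in granulosa cells, without overlap. Zar1, another factor of stored mRNA, had medians of 787 RPM in oocytes and 12.5 RPM in granulosa cells. Cpeb1, which controls polyadenylation in the cytoplasm, had medians of 550 RPM and 16.1 RPM. Its granulosa levels differed by pool, at 12.7 to 394 RPM in pool S4 and 0 to 30.9 RPM in pool S5. Btg4, an adaptor for mRNA decay at maturation, had a median of 30.5 RPM in Primary follicle and 965 RPM in Secondary-antral oocytes. Cnot6l, a deadenylase, had a difference of 1.10 and was not past the fold. Ddx4, an RNA helicase that marks germ cells, had a difference of -0.11, with 165 to 556 RPM in oocytes and 89.8 to 1146 RPM in granulosa cells. Reads on the row of Ddx4 were found in all 36 cells.

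Surface proteins of the oocyte and the machinery of meiotic arrest were past the fold in oocytes in 7 of 8 genes (background 28%). Kit, the receptor for Kit ligand, was at 121 to 482 RPM in oocytes and was read in 4 of 24 granulosa cells, with a highest level of 219 RPM. Gja4, the oocyte connexin, had medians of 193 RPM in oocytes and 0 RPM in granulosa cells. Astl, a protease that modifies the zona, had a difference of 6.55, and Izumo1r, the egg receptor for sperm, had one of 4.17. Pde3a, the phosphodiesterase that lowers cyclic AMP in oocytes, had a difference of 5.02, and Gpr3, the receptor that keeps cyclic AMP high, had one of 3.95. Adcy3, an adenylyl cyclase, had a difference of -0.31.

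Chromatin proteins of the oocyte were past the fold in oocytes in 6 of 8 genes (background 28%). Dppa3, which protects the maternal genome from demethylation, was at 466 to 1011 RPM in oocytes and at 0 to 405 RPM in granulosa cells, without overlap. Dnmt1, the maintenance DNA methyltransferase, had a median of 2345 RPM in oocytes, which was 537 RPM in Primary follicle and 3116 RPM in Secondary-antral oocytes, and one of 76.4 RPM in granulosa cells. Npm2, a histone chaperone, had medians of 596 RPM and 9.36 RPM, and H1foo, the linker histone of oocytes, had medians of 745 RPM and 2.73 RPM. Dnmt3a and Trim28, which both cell types use, had differences of 0.72 and 0.30.

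Genes outside these lists were also among the 12 protein-coding genes with the largest difference towards oocytes. Th, tyrosine hydroxylase of catecholamine synthesis, was at 47.7 to 632 RPM in oocytes and had no read in any of the 24 granulosa cells. With a floor of 3 reads over the granulosa cells, its summed level was at least 613-fold higher in oocytes. Primary follicle oocytes had more of it, with a median of 374 RPM, than Secondary-antral oocytes, with 60.1 RPM. Ckb, a creatine kinase, was at 192 to 721 RPM in oocytes and was read in 4 granulosa cells, at most at 60.9 RPM, without overlap. Esrp1, an epithelial splicing regulator, and Pkd2l2, a member of the polycystin family, had differences of 7.22 and 7.16.

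Genes that identify granulosa cells were on the other side. Of 15 genes of this list 14 passed the filter, with a median difference of -1.83. Of these, 7 were past the fold in granulosa cells (background 2.74%) and 0 in oocytes (background 28%). Fshr, the receptor for follicle-stimulating hormone (chr17:88984952-89200675, minus strand), was at 33.7 to 3613 RPM in granulosa cells (median 533 RPM) and at 0 to 98.6 RPM in oocytes (median 18.5 RPM). Its medians were 1330 RPM in pool S4 and 390 RPM in pool S5. Inha, the α subunit of inhibin, was at 696 to 3386 RPM in granulosa cells and at 62.3 to 449 RPM in oocytes, without overlap. Fst, the activin antagonist follistatin, had medians of 698 RPM and 27.4 RPM, and Nr5a2, a nuclear receptor of granulosa cells, had medians of 1048 RPM and 162 RPM. Inhbb, Runx1 and Hsd17b1 were also past the fold in granulosa cells of both pools together. Against pool S5 alone, Runx1 and Hsd17b1 were not past it. Hsd17b1 was at 17.1 to 368 RPM in pool S4 and at 0 to 129 RPM in pool S5. Inhba, the βA subunit of activin and inhibin, had a difference of -3.67 against pool S4 and 0.70 against pool S5, and a median of 0 RPM in pool S5.

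Several textbook granulosa genes were not past the fold over both pools together. Foxl2, the factor that maintains granulosa identity, was at 10.9 to 247 RPM in oocytes (median 44.1 RPM) and at 0 to 206 RPM in granulosa cells (median 55.6 RPM). Its difference was 0.51 and turned to -0.48 with pool S5 alone, -0.22 with Neighboring granulosa cells alone and -0.09 with summed counts. Amh, anti-Müllerian hormone, had a difference of -1.53 with 0 to 1140 RPM in granulosa cells, and Amhr2, its receptor, had one of -1.72. Against pool S4 these were -0.91 and -1.01. Against pool S5 alone both genes were past the fold, at -2.15 and -2.44. Wt1, a transcription factor of granulosa cells, was read in all 12 oocytes, at 19.3 to 849 RPM, and had a difference of 0.61. It was at 0 to 534 RPM in pool S4 and at 22.4 to 1211 RPM in pool S5, and its direction turned with pool S5 alone. Cyp19a1, the aromatase of late follicles, did not pass the filter and was read in 1 granulosa cell and 3 oocytes.

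Signalling genes of granulosa cells were past the fold in granulosa cells in 5 of 11 genes (background 2.74%). The median difference was -1.63. Gja1, the connexin that joins granulosa cells to each other, was at 551 to 3920 RPM in granulosa cells and at 3.35 to 178 RPM in oocytes, without overlap. Bmpr1b, a type I receptor for BMP ligands, had medians of 1388 RPM and 277 RPM. Esr2, the estrogen receptor of granulosa cells, had medians of 651 RPM and 121 RPM, and Notch2, the Notch receptor there, had a difference of -2.19. Kitl, the ligand of Kit that granulosa cells are known to make, was past the fold in the other direction, with a difference of 2.04. It was 3.07 against pool S4 but not past the fold against pool S5 (1.02), after thinning (0.63), with Secondary-antral oocytes alone (0.99), with summed counts (1.21) or with a pseudocount of 10 (0.76). It was read in 10 of 12 oocytes, with a median of 25.1 RPM in Primary follicle and 0.965 RPM in Secondary-antral oocytes. Among granulosa cells it was read in 6 cells, all of pool S5, at most at 90.7 RPM, and it had no read in the 12 cells of pool S4. Nppc, the natriuretic peptide that sustains meiotic arrest, was read in 7 granulosa cells and 1 oocyte.

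Further genes towards granulosa cells were Ntng1, a netrin family protein, Arhgap6, a GTPase-activating protein, and Pde7b, a cyclic AMP phosphodiesterase, with differences of -5.77, -5.76 and -5.39. Pde7b had medians of 2161 RPM in pool S4 and 152 RPM in pool S5. Slc8a1, a sodium-calcium exchanger, Plod2, a collagen lysyl hydroxylase, and Slc38a5, an amino acid transporter, had differences of -5.29, -5.11 and -5.00. Besides Igf1, Gja1 and Inha, the genes higher in granulosa cells without overlap were Ank3, Ano4, Adamts19, Akr1c14, Plxdc2, Gramd1b and Ptprd. Ano4, a member of the anoctamin family, was at 735 to 7345 RPM in granulosa cells and at 11.7 to 428 RPM in oocytes.

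Among the 10 most abundant protein-coding genes of granulosa cells were mt-Co3, mt-Nd4, mt-Atp6, mt-Co1, mt-Nd5, mt-Co2 and mt-Nd1 of the mitochondrial genome, with Mast4, Ano4 and Ptprd. Those of oocytes were Zbed3, Gdf9, mt-Nd4, Hsp90aa1, mt-Atp6, mt-Co3, Uchl1, Gm20388, Dnmt1 and Zp3. These ranks are of RPM of 3′ reads, which were not divided by transcript length. Hsp90aa1, a heat shock chaperone, had medians of 2661 RPM in oocytes and 456 RPM in granulosa cells, and Uchl1, a ubiquitin hydrolase abundant in oocytes, had medians of 2546 RPM and 54.9 RPM.

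Metabolic lists differed less between the cell types. The 13 protein-coding genes of the mitochondrial genome had a median difference of -0.53, and 0 of them were past the fold. Of 75 nuclear genes of the respiratory chain that passed the filter, 13 were past the fold in oocytes and 0 in granulosa cells, with a median of 1.04. That is 17.3% of the list in a background of 28% for protein-coding genes. With summed counts the median of this list was 0.05. All 77 genes of cytosolic ribosomal proteins passed the filter and 0 were past the fold, in backgrounds of 28% in oocytes and 2.74% in granulosa cells. Their median difference was -0.68, with 73 below 0, and their summed level was 11264 to 37197 RPM in oocytes and 18627 to 42450 RPM in granulosa cells.

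Glycolysis is weak in oocytes, which take up pyruvate from granulosa cells. Of 15 genes of glycolysis 1 (6.67%) was past the fold in oocytes, below the background of 28% for protein-coding genes. This was Ldhb, a subunit of lactate dehydrogenase, at 179 to 2373 RPM in oocytes and 5.66 to 461 RPM in granulosa cells. The median of the list was -0.05, and its sign turned under 6 alternatives, among them TMM (0.18) and DESeq2 size factors (0.14). Pkm, pyruvate kinase, had a difference of 1.11, Pgk1, phosphoglycerate kinase, had one of -1.03, and Pfkp, a platelet type phosphofructokinase, had one of -1.06.

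Cholesterol is known to be made in granulosa cells and passed to the oocyte. Of 18 genes of its synthesis 6 were past the fold in oocytes and 0 in granulosa cells, and all 18 differences were above 0, with a median of 1.34. Of all 14618 protein-coding genes 10595 were above 0, with a median of 0.86. Fdft1, squalene synthase, was at 94.6 to 1088 RPM in oocytes (median 275 RPM) and at 0 to 357 RPM in granulosa cells (median 4.20 RPM). Hmgcs1, an enzyme early in the pathway, had medians of 170 RPM and 6.11 RPM. Of the 18 genes, 33.3% were past the fold in oocytes, against the background of 28%. The median was 0.62 after thinning and 0.41 with a pseudocount of 10.

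Of 18 cell cycle genes 3 (16.7%) were past the fold in oocytes, below the background of 28%, and 1 in granulosa cells. Ccnb1, a B-type cyclin that oocytes store, was at 7.92 to 1336 RPM in oocytes and 0 to 531 RPM in granulosa cells, and it was past the fold together with the mitotic kinases Plk1 and Aurka. With Primary follicle oocytes alone the difference of Plk1 turned to -0.23. Top2a, a topoisomerase of dividing cells, was past the fold in granulosa cells, with a difference of -2.83 and reads in all 24 of them. Mki67, a marker of proliferation, was read in all 12 oocytes and 22 granulosa cells and had a difference of 0.09. Among stress and immediate early genes 11 of 13 passed the filter, of which 4 (36.4%, in a background of 28%) were past the fold in oocytes, Egr1, Dusp1, Hsp90aa1 and Dnajb1. The difference of Dusp1 turned to -0.65 with Primary follicle oocytes alone. Fos was read in 1 oocyte and 4 granulosa cells, and Jun in 2 oocytes and 8 granulosa cells. Of 8 housekeeping genes 0 were past the fold, in backgrounds of 28% in oocytes and 2.74% in granulosa cells. Their median was -0.42.

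**Figure D4:**
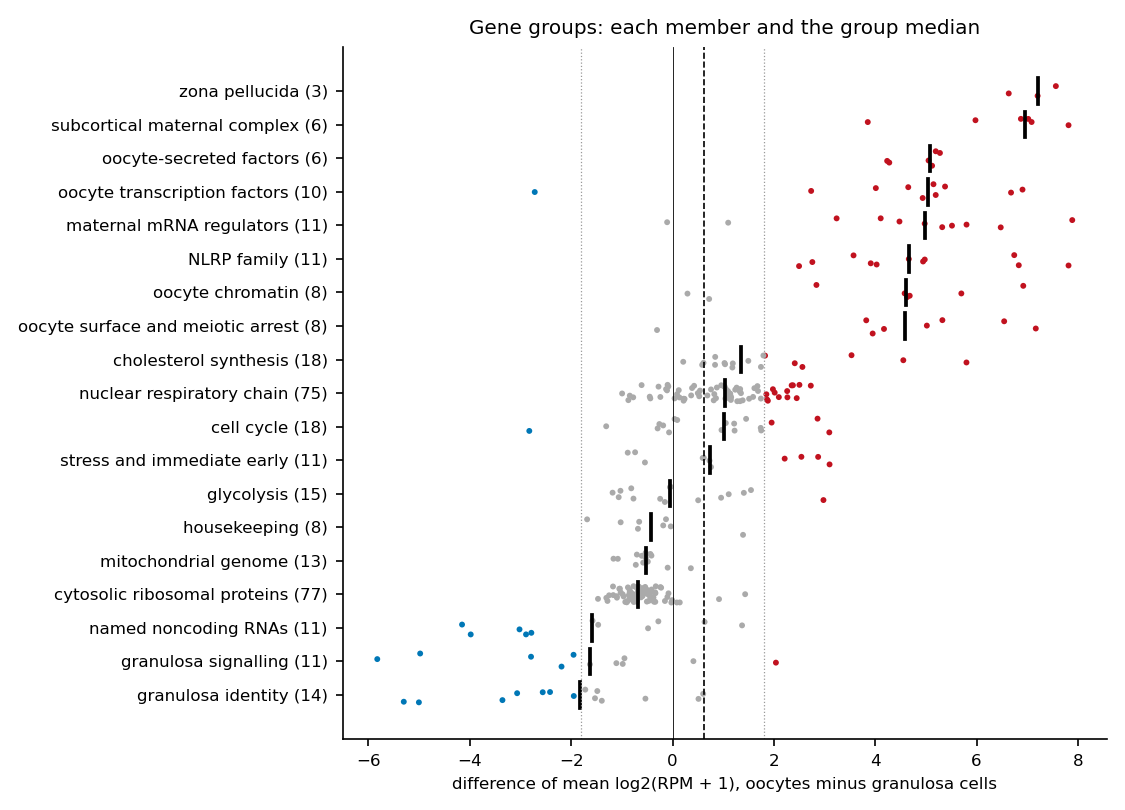
Each point is a gene of a list, placed by its difference of mean log2(RPM + 1), oocytes minus granulosa cells, with the list and its number of genes past the filter on the vertical axis. Black bars are list medians, the dashed line is the median of all genes (0.62) and dotted lines are at 1.8 and -1.8. The lists of oocyte genes have medians of 4.60 to 7.21, and those of granulosa genes are below 0.

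Noncoding rows took 21.6% ± 2.73 of reads in oocytes (SD, n = 12 cells) and 25.1% ± 2.70 in granulosa cells (SD, n = 24 cells). The ranges, 17.7% to 26.3% and 18.1% to 30.0%, overlapped. Processed pseudogenes took the largest part, with medians of 8.66% in oocytes and 10.3% in granulosa cells. Long noncoding RNAs had medians of 3.43% and 3.64%, and small and structural RNAs had medians of 3.32% and 3.76%. Of 23845 noncoding rows, 11684 overlapped a protein-coding gene extended by 10 kb at its 3′ end, and these carried a median of 53.1% of noncoding reads in oocytes and 53.3% in granulosa cells. Whether strand was used in the counting is not given in the sources used here, so that reads of such rows and of the coding gene cannot be told apart.

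The 6 noncoding rows with the largest differences towards oocytes were at 6.21 to 7.34. Arhgap20os, an antisense row at the Arhgap20 gene, was at 34.1 to 569 RPM in oocytes and was read in 5 granulosa cells, with a difference of 7.34. AY512915, Gm12892 and D030018L15Rik, which overlap no coding gene, did not overlap between the cell types. AY512915 was at 68.3 to 658 RPM in oocytes and at most at 65.0 RPM in granulosa cells, Gm12892, a processed pseudogene, was at 95.0 to 519 RPM and at most at 31.8 RPM, and D030018L15Rik, a long intergenic RNA, was at 21.8 to 237 RPM and at most at 12.6 RPM. Gm25196, a miRNA row inside Nlrp5 on the same strand, had a correlation of 0.889 with Nlrp5 across the 36 cells, which share library and depth. Nlrp5-ps, a pseudogene of Nlrp5, had a difference of 6.21.

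Of 11 named noncoding RNAs that passed the filter, 5 were past the fold in granulosa cells and 0 in oocytes. Among all noncoding genes 1.28% were past it in granulosa cells and 12.8% in oocytes. Of the 11 differences, 9 were below 0 and 2 above it. Xist, the RNA that coats the inactive X chromosome (chrX:103460366-103483254, minus strand), was at 4.81 to 3136 RPM in granulosa cells (median 926 RPM) and at 2.74 to 1082 RPM in oocytes (median 31.6 RPM). Growing oocytes are known to have both X chromosomes active. The groups overlapped, and the medians of granulosa cells were 343 RPM in pool S4 and 1454 RPM in pool S5. Kcnq1ot1 and Airn, antisense RNAs expressed from the paternal allele of imprinted loci, had differences of -3.98 and -3.02, and Meg3 and Rian, from the maternal allele of another locus, had differences of -2.89 and -2.79. Malat1, an abundant nuclear RNA, was at 127 to 4655 RPM in oocytes and 785 to 7759 RPM in granulosa cells. Its difference of -1.58 became 0.05 with Primary follicle oocytes alone. Tug1 had a difference of 1.37 and Neat1 one of -0.48, of which that of Neat1 turned in sign under at least 1 alternative. The largest noncoding difference towards granulosa cells, -4.64, was that of 8030451A03Rik, at 60.9 to 1797 RPM in granulosa cells and 0 to 184 RPM in oocytes.

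Oocyte markers were also read in granulosa cells, at higher sums in cells labelled Neighboring. The summed level of the 10 oocyte markers had a median of 586 RPM in Neighboring and 38 RPM in Non-neighboring granulosa cells. It was 500 RPM or more in 7 of 12 Neighboring cells and in 1 of 12 Non-neighboring cells. The medians were 53.2 RPM in pool S4 and 202 RPM in pool S5. The most abundant of these markers was Gdf9. The highest cell, Neighboring cell IL04 of pool S5, had reads of all 10 markers and 2396 RPM, which is 14.9% of the median oocyte. With the 12 Non-neighboring granulosa cells alone, 1.08% of genes past the filter were higher in oocytes without overlap. With the 12 Neighboring cells alone it was 0.562%. The share was 0.246% with all 24 cells, but fewer cells can only keep or raise it for the same genes. The part of oocyte marker reads in granulosa cells in the differences above was not tested.

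Markers of other ovarian cells were low in most cells. Theca and interstitial markers summed to 0 to 2532 RPM in granulosa cells and 0 to 192 RPM in oocytes. Their most abundant gene was Hsd3b1, a steroid dehydrogenase, which was past the fold in granulosa cells with a difference of -3.59. Cyp17a1, which defines theca cells, was read in 3 granulosa cells and 1 oocyte, and Insl3 was not analysed here. The theca sum had a median of 691 RPM in Non-neighboring and 29 RPM in Neighboring granulosa cells. Stroma markers, led by Col1a2, summed to 0 to 978 RPM in granulosa cells and 0 to 726 RPM in oocytes, of which 726 RPM were in Primary follicle oocyte IL01. Endothelium markers summed to at most 524 RPM and blood markers to at most 471 RPM, both in granulosa cells, and C1qa, a macrophage gene, had no read in any cell. Of these lists, 0 genes of stroma, endothelium and blood were past the fold. Among all protein-coding genes 28% were past it in oocytes and 2.74% in granulosa cells. The part of these cells in the differences was not tested.

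The cell types were separated along the main axis of variation. PCA without scaling on the 21178 genes placed all oocytes above all granulosa cells on PC1, with 19.4% of the variance on PC1 and 4.50% on PC2. The gap between the nearest oocyte, IL01, and the nearest granulosa cell, Neighboring cell IL03 of pool S4, was 20.5% of the range of PC1. With noncoding genes alone it was 23.5%, and after thinning it was 14.9%. The median correlation between libraries was 0.677 among oocytes, 0.554 among granulosa cells and 0.497 between the cell types, as a description over genes that share depth.

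The same contrast was available in alcohol-fixed sections amplified by DRaqL-SC3-seq (44 oocytes and 57 granulosa cells), DRaqL-SMART-Seq v4 (15 and 39) and DRaqL-Smart-seq2 (8 and 70), none of which shares a cell with the formalin table. Per the study's methods, granulosa cells with profiles mixed with those of oocytes had been removed from the DRaqL-SC3-seq cells, and shallow libraries from the DRaqL-Smart-seq2 cells. In the formalin table all granulosa cells were kept, so that the cells compared were selected differently. Per the study's text, the ovary of the formalin-fixed sections was also used for DRaqL-SMART-Seq v4 and for DRaqL-SC3-seq, whereas the DRaqL-Smart-seq2 cells came from an ovary of a mouse in proestrus. Across protein-coding genes above 4 in at least 1 cell of both tables, the differences correlated with those in formalin with Pearson's r of 0.789 (13793 genes), 0.822 (14223 genes) and 0.817 (13978 genes). Genes are not independent replicates, and no p-value was taken. Of the genes higher in formalin-fixed oocytes, 88.3%, 72.5% and 84.2% were past the fold in the same direction in the alcohol tables, where 49.4%, 30.1% and 41.3% of all compared genes were. Of those higher in formalin-fixed granulosa cells, 36.3%, 59.8% and 69.9% were, where 2.01%, 3.95% and 5.17% of all compared genes were. Of the genes higher in formalin-fixed oocytes at most 5, and of those higher in formalin-fixed granulosa cells at most 1, were past the fold in the opposite direction in any of these tables.

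Dazl, Igf1 and Adamts6 had the same direction in all 4 tables with differences in size, whereas Foxl2, Taf4b and Wt1 did not. With RPM of protein-coding genes, the difference of Dazl was 8.17 in formalin and 7.46, 6.93 and 8.11 in the alcohol tables, in the order above. That of Igf1 was -6.01 in formalin and -5.50, -4.10 and -5.98. Adamts6 was at -6.04 in formalin and at -2.96, -2.33 and -6.15. Foxl2 was at 0.50 in formalin and at -1.49, -2.69 and -3.53 in the alcohol tables. Taf4b was at -2.81 in formalin and at 1.76, -0.44 and -0.02. Wt1 was at 0.60 in formalin and at -2.37, -1.19 and -4.55. The zona pellucida list had a median of 7.35 in formalin and 8.91, 8.84 and 8.42, and the list of granulosa identity one of -1.91 and -2.34, -2.65 and -3.51. Kitl was above 0 in all 4 tables, at 2.19 in formalin and at 0.93, 1.32 and 0.75.

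When each library was thinned to 50000 reads on protein-coding genes, formalin-fixed oocytes showed 7961 ± 1095 detectable genes (SD, n = 12 cells) and formalin-fixed granulosa cells 5929 ± 484 (SD, n = 24 cells). Alcohol-fixed oocytes showed means of 7868, 7726 and 7597 in the same order of tables, and alcohol-fixed granulosa cells 4067, 5580 and 4651, with 1 granulosa cell of the last table left out as too shallow. Amplification, fixation and library pool differ between these tables, as may the animal and its stage of the estrous cycle for DRaqL-Smart-seq2, and these cannot be told apart.

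**Figure D5:**
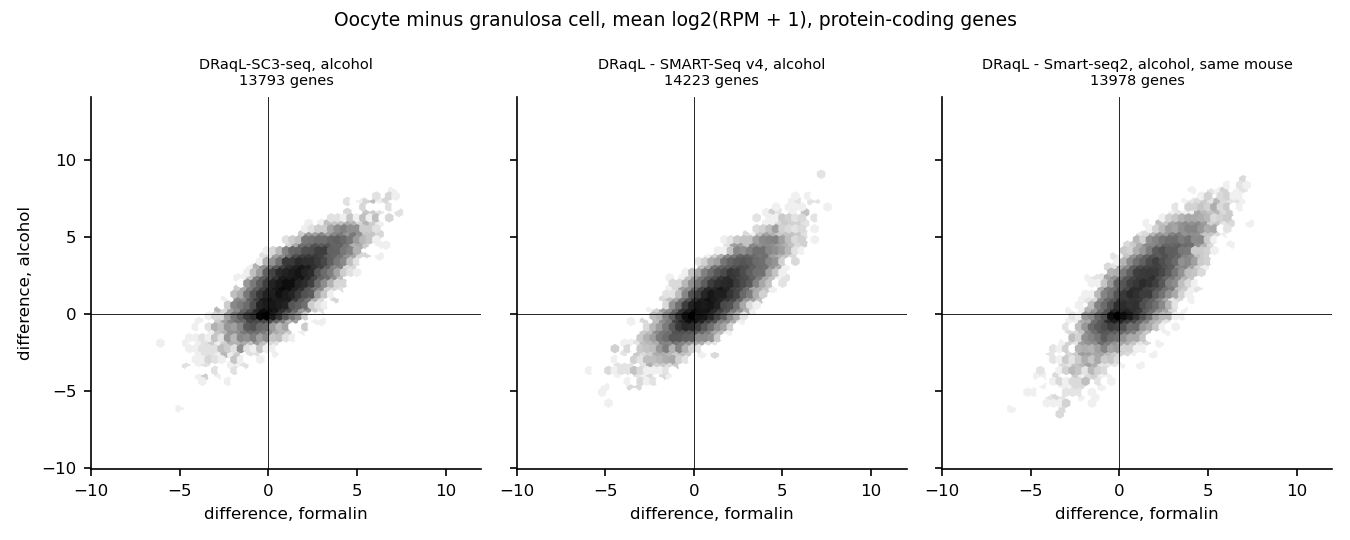
Each panel plots, for protein-coding genes above 4 in at least 1 cell of both tables, the difference oocyte minus granulosa cell in an alcohol-fixed table (vertical axis) against that in the formalin table (horizontal axis), both of mean log2(RPM + 1). Darker hexagons hold more genes on a log scale, and the numbers of genes are 13793, 14223 and 13978. In all 3 panels the cloud runs from lower left to upper right, with Pearson's r of 0.789, 0.822 and 0.817.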

How the data were processed

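The authors deposited raw read counts per gene for each cell, not normalized and not pooled. Per the labels, the methods and the submitters' processing notes, reads were trimmed with fastp 0.20.0 and cutadapt 1.16, aligned with HISAT2 2.1.0 to GRCm38 and counted with HTSeq 0.10.0 within 10 kb of the 3′ ends of Ensembl genes. The notes also name featureCounts 2.0.1, which counts exons and junctions and bears on no table used here. ERCC reads were deposited as counts in a separate table. For the lysis buffer of these cells the labels list Triton X-100 where the methods list sodium deoxycholate.

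The deposited counts were scaled to RPM by the total of the library over all 45905 rows (22060 protein-coding, 23845 noncoding), and compared as log2(RPM + 1). Genes above 4 in at least 1 of 36 cells were kept, and differences of means beyond 1.8 in either direction were counted, the filter and fold of the study's methods without its test. Library totals were 79010 to 2525212 reads, and a floor of 3 reads replaced a count of 0 in ratios. Poisson intervals (95%) of summed counts cover counting error only, since amplified reads carry no molecular identifiers. Of 45905 rows, 98.3% matched a GENCODE gene of GRCm38 by identifier, from which coordinates were taken. Another 101 columns of the tables used were not mapped to a sample of the comparisons and were not used.

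Genes are named if they belong to the lists or to the 12 coding and 6 noncoding genes that differed most towards each cell type at a mean of at least 4 in a group, or to the 10 most abundant coding genes of a cell type. Genes without overlap that fall outside this rule (Adamts19, Akr1c14, Plxdc2 and Gramd1b), and the coding partners of noncoding rows, were named after their values were seen. The members and lists were chosen with earlier results of these data known. The calculation of differences was checked on simulated counts with known folds. Alternatives covered the pseudocount, filters, TMM in edgeR 4.0.16, size factors in DESeq2 1.42.0 (R 4.3.3), summed counts, thinning, library pools, positions and follicle stages. Other steps used Python 3.11.15, numpy 2.4.6, pandas 2.3.3 and scipy 1.17.1.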

Additional observations from a re-analysis of the deposited data

Results flagged for a closer look

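Gaps in 64 groups of library measures were compared with Dixon's 95% critical value in the 5 Primary follicle oocytes and the 7 Secondary-antral oocytes, and 14 values stood apart. Chance flags about 1 in 20 groups, and the groups are not independent, since the same cells recur in them.

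Secondary-antral oocyte IL08 stood apart from the other 6 in 5 measures. It had the fewest detectable protein-coding genes after thinning, 5678 against 8798 in the next oocyte, and 0.847 gene reads per ERCC read against 29.1. Its summed level of surface and meiotic arrest genes was 713 RPM against 1443, whereas that of cholesterol synthesis was 1856 RPM against 1134 and that of the named noncoding RNAs 3205 RPM against 1036. Without this oocyte 83 genes were higher in oocytes without overlap, against 52 with it. Leaving out any oocyte can only keep or raise this count for the same genes, and the other oocytes were not left out in turn.

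Primary follicle oocyte IL01 was high in stroma markers, at 726 RPM against 34.0 in the next, and in theca and interstitial markers, at 192 RPM against 22.6. Primary follicle oocyte IL02 was high in blood and immune markers, at 77.6 RPM against 5.03. Primary follicle oocyte IL03 was low in granulosa markers, at 528 RPM against 794, and high in luteal markers, at 54.7 RPM against 15.1.

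Secondary-antral oocyte IL09 was high in theca and interstitial markers, at 169 RPM against 43.3, in blood and immune markers, at 21.2 RPM against 3.31, and in luteal markers, at 126 RPM against 33.7. Secondary-antral oocyte IL11 was high in surface epithelium markers, at 12.5 RPM against 3.31, a list of which 0 genes passed the filter.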

How the results depend on the processing

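No paired analysis was possible because each cell type counted as 1 sample and the results come from no test. No list median beyond 1.8 in either direction changed sign under the alternatives run. Of 135 genes beyond 1.8 that were recomputed, 2 changed sign, both with Primary follicle oocytes alone (Plk1 -0.23 and Dusp1 -0.65), and 48 were within 1.8 under at least 1 alternative. Among recomputed values within 1.8, signs turned under at least 1 alternative for the medians of the lists of cell cycle, glycolysis, housekeeping, stress, stroma, endothelium and theca genes and for Foxl2, Inhba, Malat1, Neat1 and Rn7sk. Across alternatives 371 list medians stayed within the spread between cells and 40 moved beyond it, and 2199 values of single genes stayed, 77 moved and 2 reversed. The cause of these shifts was not tested. Genes higher in oocytes numbered 8886 with a pseudocount of 0.1, 1141 with a pseudocount of 10 and 3195 with a mean of at least 4 in a group. Genes higher in granulosa cells numbered 757 and 225 with these pseudocounts, 2415 with summed counts, 772 after thinning and 753 with Secondary-antral oocytes alone. Of genes past the filter, 0.0898% were higher in oocytes without overlap after thinning and 0.393% without oocyte IL08, and those higher in granulosa cells stayed within 1.5 times the main share there. With alternatives chosen after seeing the data, the shares higher in oocytes were 0.562% with Neighboring cells, 1.08% with Non-neighboring cells and 0.372% with DESeq2 size factors. Those higher in granulosa cells were 0.182% with Neighboring cells, 0.0811% with Non-neighboring cells, 0.0281% with TMM and 0.0235% with DESeq2 size factors. For the same genes, leaving out cells can only keep or raise a share without overlap.

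List medians that moved were as follows. With summed counts they were 4.18 for oocyte markers, 4.41 for zona pellucida, 4.30 for the subcortical maternal complex, 2.80 for the NLRP family, 2.86 for maternal mRNA regulators, -2.60 for granulosa identity and 0.050 for the respiratory chain. With a pseudocount of 0.1 they were 7.16 for transcription factors, 6.76 for the NLRP family, 6.35 for mRNA regulators, 6.99 for surface and arrest genes, 2.98 for cholesterol synthesis and 1.67 for stress genes. A pseudocount of 10 gave 2.95, 2.56, 3.30, 2.62 and 0.41 for the first 5 of these lists, 2.78 for oocyte chromatin and 0.49 for the respiratory chain. With a mean of at least 4 in a group they were -4.02 for granulosa markers, -3.59 for theca markers, 3.53 for cholesterol synthesis, 2.21 for stress genes and -2.89 for noncoding RNAs. Primary follicle oocytes alone gave 1.93 for secreted factors, 2.50 for the NLRP family, 3.22 for mRNA regulators, 2.83 for oocyte chromatin and -0.12 for ribosomal proteins. Secondary-antral oocytes alone gave 6.94 for transcription factors, 6.54 for the NLRP family, 6.27 for mRNA regulators, 5.84 for surface and arrest genes and -2.62 for noncoding RNAs. Transcription factors were at 3.97 with Neighboring cells, granulosa identity at -2.83 with pool S4, cholesterol synthesis at 0.62 after thinning, and noncoding RNAs at -2.26 with pool S5 and -2.23 with Non-neighboring cells. The excess of detectable genes in oocytes was 678 with at least 5 reads and 4468 without thinning. The correlations with alcohol-fixed tables were 0.834, 0.875 and 0.880 over genes with a mean of at least 4 in both. Depth limits genes with few reads, since 1 read is worth most in the shallowest library.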

Other observations

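Genes higher in granulosa cells were long. The 400 protein-coding genes past the fold in granulosa cells had a median span of 83.2 kb on the genome, and 45.8% of them were longer than 100 kb. The 4093 genes past the fold in oocytes had a median of 24.0 kb with 13.4% over 100 kb, and all 14618 protein-coding genes past the filter had 26.1 kb with 16% over 100 kb. The 100 most abundant nuclear protein-coding genes had a median span of 78.8 kb in granulosa cells and 16.3 kb in oocytes. With RPM of protein-coding genes, the 100 most abundant genes of alcohol-fixed granulosa cells had a median span of 125 kb in the DRaqL-Smart-seq2 table, 4.59 kb in DRaqL-SC3-seq and 3.50 kb in DRaqL-SMART-Seq v4. Genes past the fold were compared between these tables at a mean of at least 4 in a group. Those higher in granulosa cells had medians of 94.7 kb in formalin, 41.8 kb in DRaqL-SC3-seq, 51.8 kb in DRaqL-SMART-Seq v4 and 87.9 kb in DRaqL-Smart-seq2. Those higher in oocytes had medians of 25.4, 26.8, 25.4 and 25.5 kb in the same order. All genes at this threshold had medians of 33.4, 27.9, 28.9 and 31.6 kb. Gene span was examined after the values were seen, and its part in the differences was not tested.

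The granulosa libraries of the 2 pools differed among themselves. Of the 21178 genes, 662 had a mean log2(RPM + 1) more than 1.8 higher in pool S4 than in pool S5 and 810 more than 1.8 lower. Among the 484 genes higher in granulosa cells the numbers were 59 and 23.

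Rows of the table can be copies of each other. Among 14644 rows with at least 100 reads, 63 were identical in every cell to another row, in 31 sets such as Pcdhga1, Pcdhga2 and Pcdhga3, and 16 noncoding rows were identical to a protein-coding row.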
